A study of Mus musculus with 4 samples.

Results

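The data described here are the transcript levels of 9 genes of the fibroblast growth factor (FGF) family, the ligands *Fgf2*, *Fgf7*, *Fgf10*, *Fgf18* and *Fgf21* and the receptors *Fgfr1*, *Fgfr2*, *Fgfr3* and *Fgfr4*. They were chosen by name, with earlier results of these data known. Each was represented by the annotated transcript with the longest gene body at its mm10 position and strand. The RNA-seq table held 20805 genes that code for proteins, of which these are 9. Total RNA was sequenced from immortalized mouse embryonic fibroblasts (MEF) of C57BL/6 embryos at embryonic day 15.5, taken from the body without head, limbs, tail and viscera. The 4 libraries were *Hmga2*+/+ Ctrl, *Hmga2*+/+ TGFB1, *Hmga2*-/- Ctrl and *Hmga2*-/- TGFB1, with 1 library per group. *Hmga2*-/- cells lack the high mobility group protein HMGA2. All cells were kept overnight in medium with 1% serum, and the TGFB1 groups then received human recombinant TGFB1 at 10 ng/ml, over 24 h. In all 4 groups the cells had been immortalized with a simian virus, so none of the libraries comes from primary fibroblasts.

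FGF ligands are secreted proteins that bind receptor tyrosine kinases together with heparan sulfate chains, or, for the endocrine FGFs, together with a klotho protein. A ligand-bound receptor signals through the docking protein FRS2 to the RAS-MAPK and PI3K pathways, and MAPK phosphatases, Sprouty and Spred proteins restrain that signal. Fibroblasts are known as a source of FGF7 and FGF10, which act on an FGFR2 form of epithelial cells, and they respond to FGF2 mainly through FGFR1.

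With 1 library per group no difference has a replicate check, so no p-value is given. The values are reads scaled to transcript length and to the mapped reads of each library (RPKM), a level per length. Between genes, such levels depend on the transcript that stands for each gene. The *Fgfr1* transcripts ran from 8.69 to 33.2 RPKM in *Hmga2*+/+ TGFB1. The *Fgf7* transcripts were at 13.7 and 8.60 RPKM in *Hmga2*+/+ Ctrl. Orders and shares below therefore hold for the chosen transcripts. A gene was called higher or lower in a pair of libraries when the RPKM ratio was at least 1.5-fold, with 0 RPKM set to 0.001. The reads behind each value were recovered from the RPKM, the transcript length and the depth of each library, which lay between 56143300 and 57296600 mapped reads. All intervals below are 95% intervals of these reads (exact Poisson for a level, exact Clopper-Pearson for a ratio of 2 libraries). They cover counting error only, and they compare the libraries, not the conditions.

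*Hmga2*, the targeted gene, was at 14.8 RPKM in *Hmga2*+/+ Ctrl and 40.7 RPKM in *Hmga2*+/+ TGFB1, and 0 reads were assigned to any of its 3 transcripts in both *Hmga2*-/- libraries. Against a floor of 3 reads per library this is at least 1191-fold lower in Ctrl and at least 3298-fold lower with TGFB1, as the labels state. Of the 8 fibroblast markers (*Col1a1*, *Col1a2*, *Col3a1*, *Pdgfra*, *Pdgfrb*, *Thy1*, *Vim*, *Fn1*) none fell below 4.11 RPKM in any library, and their summed level ran from 2332 to 2927 RPKM. The 5 epithelial markers summed to 0.411 to 1.04 RPKM, the 4 blood markers to 1.26 to 1.63 RPKM with *Hbb-bs* at 0, and the 3 muscle markers to at most 0.052 RPKM with *Myod1* and *Myog* at 0. The 3 neural markers summed to 0.931 RPKM in *Hmga2*+/+ Ctrl and 4.4 RPKM in *Hmga2*-/- TGFB1, nearly all of it *Tubb3*. The 4 endothelial markers summed to 3.89 to 8.14 RPKM, and within that list *Kdr* was higher and *Tek* lower with TGFB1, while *Pecam1* reached at most 0.03 RPKM and *Cdh5* at most 0.048 RPKM. The part of these markers in the results below was not tested. In bulk RNA, fewer cells of a type and less RNA per cell cannot be told apart.

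Of the 9 genes, 8 reached 1 RPKM in at least 1 library, and *Fgfr4* did not. In both Ctrl libraries the highest levels were those of *Fgfr1*, *Fgfr2* and *Fgf7*. In both TGFB1 libraries *Fgf2* stood first, ahead of *Fgfr1*, *Fgfr2* and *Fgf7* in that order. Neighbours whose intervals overlapped were *Fgfr1* and *Fgfr2* in *Hmga2*+/+ Ctrl, *Fgf18* and *Fgf21* in *Hmga2*+/+ TGFB1, *Fgf10*, *Fgf2*, *Fgf18* and *Fgfr3* from one to the next in *Hmga2*-/- Ctrl, *Fgf7* and *Fgf18* in *Hmga2*-/- TGFB1, and *Fgf21* and *Fgfr4* in both Ctrl libraries. All other neighbours were apart by more than counting error, for the transcripts chosen.

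**Figure D1:**
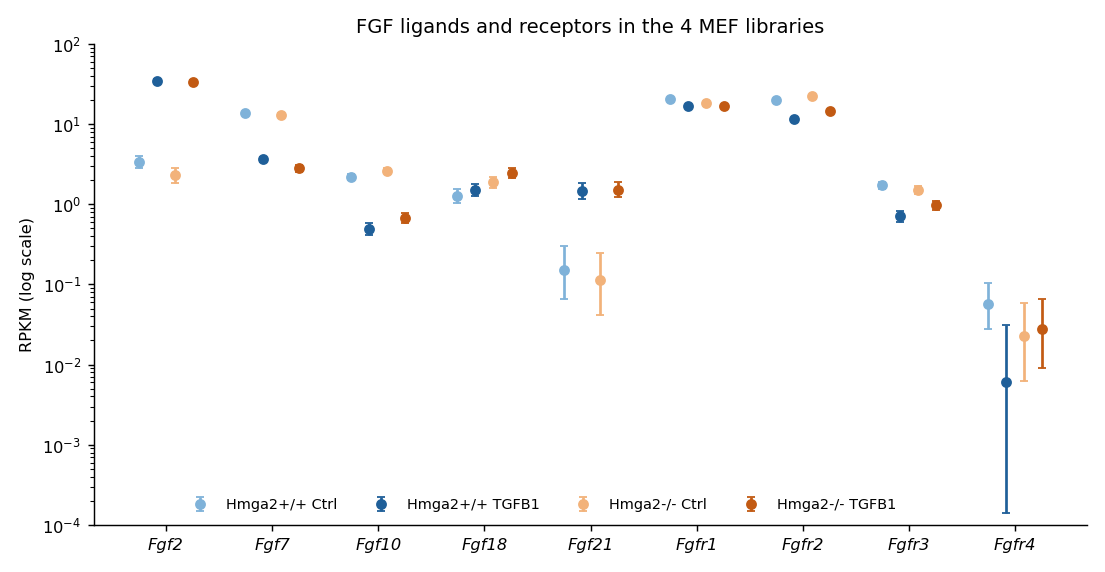
RPKM (log scale) of the 9 FGF genes in the 4 libraries, 1 point per library, with exact Poisson 95% intervals of the recovered reads. *Fgf2* and *Fgf21* lie about an order of magnitude higher in both TGFB1 libraries than in both Ctrl libraries, *Fgf7* and *Fgf10* lie lower, and *Fgfr4* rests on 1 to 10 reads.

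The ligands responded in opposite directions to TGFB1. *Fgf2* encodes basic FGF, a heparin-binding mitogen for fibroblasts that leaves cells without a signal peptide. It was at 3.41 RPKM in *Hmga2*+/+ Ctrl, 34.7 RPKM in *Hmga2*+/+ TGFB1, 2.30 RPKM in *Hmga2*-/- Ctrl and 34.0 RPKM in *Hmga2*-/- TGFB1. Both TGFB1 libraries were high and close to each other, and both Ctrl libraries were low. The level was 10.2-fold higher with TGFB1 in *Hmga2*+/+ MEF (interval 8.51 to 12.3, on 1371 against 132 reads) and 14.7-fold higher in *Hmga2*-/- MEF (11.9 to 18.5, on 1335 against 90 reads). By its log2 change it ranked 38 of 10604 genes with at least 1 RPKM in *Hmga2*+/+ MEF, and 27 of 10577 in *Hmga2*-/- MEF. 

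The *Fgf2* model (ENSMUSG00000037225.13, transcript uc008pap.2, chr3:37348653-37404830, plus strand) holds 690 bases, while the RefSeq gene runs on to position 37410106, so reads from the rest of the gene do not enter its value. Its second transcript in the table, of 513 bases, was at 2.99, 32.0, 1.62 and 30.8 RPKM in the same library order. *Nudt6*, the antisense neighbour of *Fgf2*, lies on the minus strand with its 3' end 152 bases beyond the *Fgf2* model and inside the RefSeq *Fgf2* gene. Counting used the strand. *Nudt6* was at 0.346 RPKM in *Hmga2*+/+ Ctrl, 0.516 RPKM in *Hmga2*+/+ TGFB1, 0.493 RPKM in *Hmga2*-/- Ctrl and 0.623 RPKM in *Hmga2*-/- TGFB1. It was not called with TGFB1 in either genotype, and its intervals held no change (log2 change 0.58, -0.22 to 1.40, in *Hmga2*+/+ and 0.34, -0.35 to 1.04, in *Hmga2*-/- MEF).

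*Fgf21* encodes an endocrine FGF known as a hormone of fasting and as a gene of the integrated stress response. It was at 0.151 RPKM (8 reads) in *Hmga2*+/+ Ctrl and 1.48 RPKM (80 reads) in *Hmga2*+/+ TGFB1, and at 0.113 RPKM (6 reads) in *Hmga2*-/- Ctrl and 1.53 RPKM (82 reads) in *Hmga2*-/- TGFB1. As for *Fgf2*, both TGFB1 libraries were high, but the Ctrl levels rest on few reads, so the folds are wide. They were 9.81-fold (4.74 to 23.5) in *Hmga2*+/+ and 13.5-fold (5.98 to 38.1) in *Hmga2*-/- MEF. *Klb*, which encodes beta-klotho, the co-receptor that FGF21 needs, had 1 read in each Ctrl library and 0 reads in each TGFB1 library. A count of 0 is set against the floor of 3 reads used above and does not show absence. *Kl*, for alpha-klotho, had 0 to 4 reads. Both are named as the klotho co-receptors, outside the rule for named genes and with their values known.

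*Fgf7* encodes keratinocyte growth factor, a fibroblast signal to epithelial cells, and it was the leading ligand of the Ctrl libraries. It was at 13.7 RPKM in *Hmga2*+/+ Ctrl, 3.62 RPKM in *Hmga2*+/+ TGFB1, 13.1 RPKM in *Hmga2*-/- Ctrl and 2.81 RPKM in *Hmga2*-/- TGFB1. The TGFB1 libraries were low in both genotypes, 3.79-fold lower (3.45 to 4.17) in *Hmga2*+/+ and 4.64-fold lower (4.18 to 5.16) in *Hmga2*-/- MEF. *Fgf10*, which encodes the related mesenchymal ligand of lung and limb budding, was at 2.19 RPKM in *Hmga2*+/+ Ctrl, 0.493 RPKM in *Hmga2*+/+ TGFB1, 2.62 RPKM in *Hmga2*-/- Ctrl and 0.673 RPKM in *Hmga2*-/- TGFB1. It was 4.44-fold lower (3.66 to 5.42) and 3.90-fold lower (3.30 to 4.63), respectively. In *Hmga2*+/+ MEF *Fgf7* ranked 133 and *Fgf10* ranked 95 from the lowest log2 change of 10604 genes.

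*Fgf18*, a ligand known from cartilage, bone and lung development, moved little with TGFB1. It was at 1.28 RPKM in *Hmga2*+/+ Ctrl, 1.51 RPKM in *Hmga2*+/+ TGFB1, 1.89 RPKM in *Hmga2*-/- Ctrl and 2.45 RPKM in *Hmga2*-/- TGFB1. The ratio of TGFB1 to Ctrl was 1.18 (0.912 to 1.53) in *Hmga2*+/+ and 1.29 (1.05 to 1.59) in *Hmga2*-/- MEF, and neither was called.

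The composition of the ligand transcripts therefore differed between Ctrl and TGFB1. The 5 ligands summed to 20.7 RPKM in *Hmga2*+/+ Ctrl and 20.0 RPKM in *Hmga2*-/- Ctrl, of which *Fgf7* made up 66.1% and 65.3%. With TGFB1 their sums were 41.8 RPKM in *Hmga2*+/+ and, in *Hmga2*-/- MEF, 41.4 RPKM, of which *Fgf2* made up 83.0% and 82.0%. *Fgf2* had been 16.4% and 11.5% of the Ctrl sums, and *Fgf7* was 8.67% and 6.79% of the TGFB1 sums. The other 13 secreted FGF ligands all stayed below 1 RPKM, and adding them brought the sum to 21.5 RPKM in *Hmga2*+/+ Ctrl and 43.0 RPKM in *Hmga2*+/+ TGFB1. Among these 13, *Fgf9* had the highest level in both TGFB1 libraries, though not in the Ctrl libraries, and is named here after its values were seen. It was at 0.047 RPKM in *Hmga2*+/+ Ctrl, 0.903 RPKM in *Hmga2*+/+ TGFB1, 0.132 RPKM in *Hmga2*-/- Ctrl and 0.816 RPKM in *Hmga2*-/- TGFB1.

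**Figure D2:**
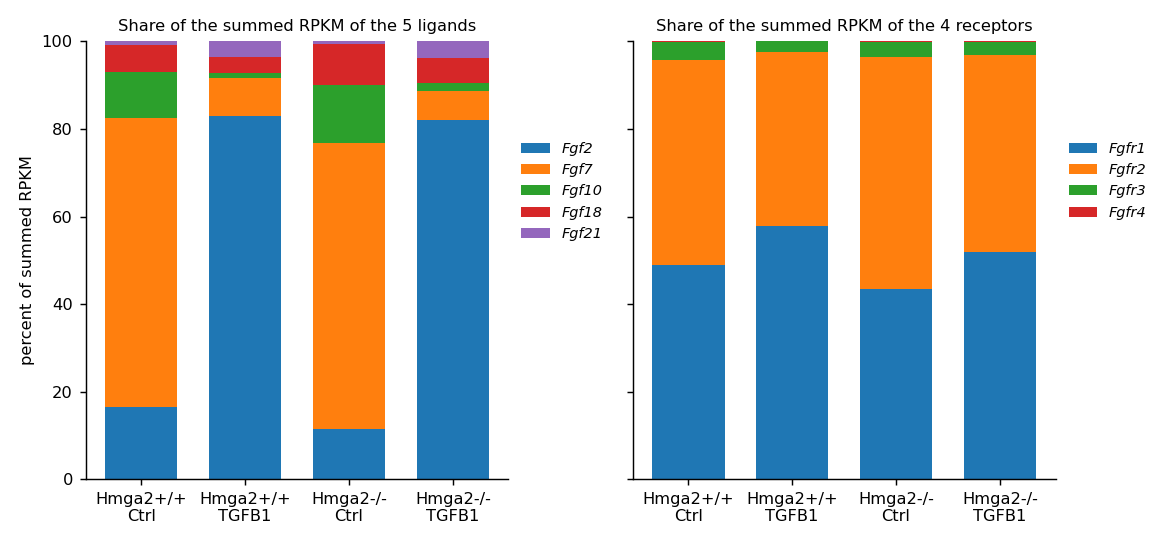
Share (percent) of the summed RPKM of the 5 ligands (left) and the 4 receptors (right) taken by each gene in each library, as stacked bars. *Fgf7* takes 66.1% of the ligand sum in *Hmga2*+/+ Ctrl and *Fgf2* takes 83.0% in *Hmga2*+/+ TGFB1, while *Fgfr1* and *Fgfr2* take nearly the whole receptor sum in all 4 libraries and the share of *Fgfr4* is too small to be seen.

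The promoters of the 2 ligands with higher levels in TGFB1 libraries and of the 2 with lower levels are shown to set the sequences beside the changes. Each window is the 250 bases before the start of the transcript measured, from RefSeq (build GRCm38.p6, the assembly also named mm10), read 5' to 3' on the strand of the gene. The RefSeq *Fgf2* gene begins at position 37348477, inside its window of chr3:37348403-37348652 (plus strand), so 176 bases of that window lie within the gene and only the 74 bases before it are printed. The window of *Fgf21* is chr7:45615491-45615740 (minus strand), *Fgf7* is chr2:126034408-126034657 (plus strand) and *Fgf10* is chr13:118714449-118714698 (plus strand). Capitals mark matches, on either strand and with overlaps counted, to 6 motifs. These were TGANTCA for AP-1 factors, TGATGNAA for ATF4 with a C/EBP factor, CAGAC for SMAD proteins, GGGCGG as the GC box, TATAAA as the TATA box and GGAATG for TEAD factors.
Fgf2: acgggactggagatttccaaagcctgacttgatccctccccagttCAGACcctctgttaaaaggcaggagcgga
Fgf21: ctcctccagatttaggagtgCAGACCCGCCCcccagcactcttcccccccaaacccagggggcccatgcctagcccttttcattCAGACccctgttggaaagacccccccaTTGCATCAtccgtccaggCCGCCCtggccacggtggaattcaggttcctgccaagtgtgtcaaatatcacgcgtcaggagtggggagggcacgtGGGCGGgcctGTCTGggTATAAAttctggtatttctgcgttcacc
Fgf7: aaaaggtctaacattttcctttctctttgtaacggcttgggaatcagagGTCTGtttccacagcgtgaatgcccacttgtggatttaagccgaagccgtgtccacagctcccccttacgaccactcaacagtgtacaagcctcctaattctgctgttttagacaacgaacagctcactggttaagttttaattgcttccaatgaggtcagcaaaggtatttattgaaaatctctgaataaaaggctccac
Fgf10: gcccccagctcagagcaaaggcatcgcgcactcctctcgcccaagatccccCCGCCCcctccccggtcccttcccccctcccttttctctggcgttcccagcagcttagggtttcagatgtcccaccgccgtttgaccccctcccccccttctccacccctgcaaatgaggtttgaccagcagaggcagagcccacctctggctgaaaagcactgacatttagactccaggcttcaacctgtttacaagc

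The *Fgf21* window held 3 SMAD motifs, 3 GC boxes, 1 ATF4-C/EBP motif at -139 to -132 and 1 TATA box at -28 to -23 from the start. The first SMAD motif of this window, at -230 to -226, directly adjoins a GC box on the opposite strand. The *Fgf2* window held 1 SMAD motif and, in the part within the RefSeq gene that is not printed, 1 GC box at -49 to -44, while the *Fgf7* window held 1 SMAD motif and the *Fgf10* window 1 GC box. None of the 4 windows held the AP-1 or the TEAD motif. The window of *Fgf18*, which was not called with TGFB1 and is not printed, held 2 SMAD motifs and 1 GC box. Among 19775 RefSeq promoter windows of the same length of the genes measured, 40.8% held the SMAD motif, 44.6% the GC box, 2.92% the ATF4-C/EBP motif, 11.2% the TATA box, 6.14% the AP-1 motif and 11.5% the TEAD motif. The GC content was 62.4% for *Fgf2*, 59.6% for *Fgf21*, 61.2% for *Fgf10* and 43.6% for *Fgf7*, against a median of 56.4%. A match describes the letters only.

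Among the receptors, *Fgfr1* and *Fgfr2* carried 48.9% and 46.9% of the summed receptor RPKM in *Hmga2*+/+ Ctrl. *Fgfr1*, the main FGF receptor of mesenchymal cells, was at 20.9 RPKM in *Hmga2*+/+ Ctrl, 16.8 RPKM in *Hmga2*+/+ TGFB1, 18.2 RPKM in *Hmga2*-/- Ctrl and 16.6 RPKM in *Hmga2*-/- TGFB1. It was 1.24-fold lower with TGFB1 (1.20 to 1.29) in *Hmga2*+/+ and 1.09-fold lower (1.05 to 1.14) in *Hmga2*-/- MEF, below the 1.5-fold threshold in both. *Fgfr2*, whose splice forms bind different ligands in epithelium and mesenchyme, was at 20.0 RPKM in *Hmga2*+/+ Ctrl, 11.4 RPKM in *Hmga2*+/+ TGFB1, 22.2 RPKM in *Hmga2*-/- Ctrl and 14.4 RPKM in *Hmga2*-/- TGFB1. It was lower with TGFB1 in both genotypes, 1.75-fold (1.68 to 1.83) and 1.54-fold (1.48 to 1.60), and in *Hmga2*-/- MEF the interval reached below the threshold. All 16 *Fgfr2* transcripts in the table were at least 1.5-fold lower in *Hmga2*+/+ MEF and 11 of 16 were in *Hmga2*-/- MEF. Transcripts of one gene share exons, so their values do not separate the splice forms.

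*Fgfr3*, known as a brake on cartilage growth, was at 1.73 RPKM in *Hmga2*+/+ Ctrl, 0.709 RPKM in *Hmga2*+/+ TGFB1, 1.51 RPKM in *Hmga2*-/- Ctrl and 0.976 RPKM in *Hmga2*-/- TGFB1. The TGFB1 libraries were low in both genotypes, 2.44-fold (2.04 to 2.94) in *Hmga2*+/+ and 1.54-fold (1.31 to 1.83) in *Hmga2*-/- MEF, where pseudocounts of 0.1 and 1 gave log2 changes of -0.58 and -0.34 and ended the call. *Fgfr4*, a receptor best known from liver and developing muscle, had 10 reads in *Hmga2*+/+ Ctrl, 1 read in *Hmga2*+/+ TGFB1, 4 reads in *Hmga2*-/- Ctrl and 5 reads in *Hmga2*-/- TGFB1. At this depth its ratios are poorly determined, with an interval of 1.45 to 443-fold lower for TGFB1 in *Hmga2*+/+ MEF. The 4 receptors summed to 42.7 RPKM in *Hmga2*+/+ Ctrl, 28.9 RPKM in *Hmga2*+/+ TGFB1, 41.9 RPKM in *Hmga2*-/- Ctrl and 32.1 RPKM in *Hmga2*-/- TGFB1, and *Fgfr1* was 58.0% and 51.9% of the TGFB1 sums.

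In total 2 of the 9 genes were called higher and 5 lower with TGFB1 in *Hmga2*+/+ MEF, where 11.6% of all 20805 genes were called higher and 19.1% lower. In *Hmga2*-/- MEF 2 were called higher and 4 lower, against 12.9% and 18.3% of all genes. Over the 10737 genes that reached 1 RPKM in any library the shares were 11.4% higher and 16.8% lower in *Hmga2*+/+ MEF and 13.1% higher and 15.1% lower in *Hmga2*-/- MEF, and 8 of the 9 genes entered this set, with 2 called higher and 4 lower in each genotype. The median log2 change of these 8 genes was -0.56 in *Hmga2*+/+ and -0.37 in *Hmga2*-/- MEF, beside -0.05 and 0.01 over the 10737 genes.

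**Figure D3:**
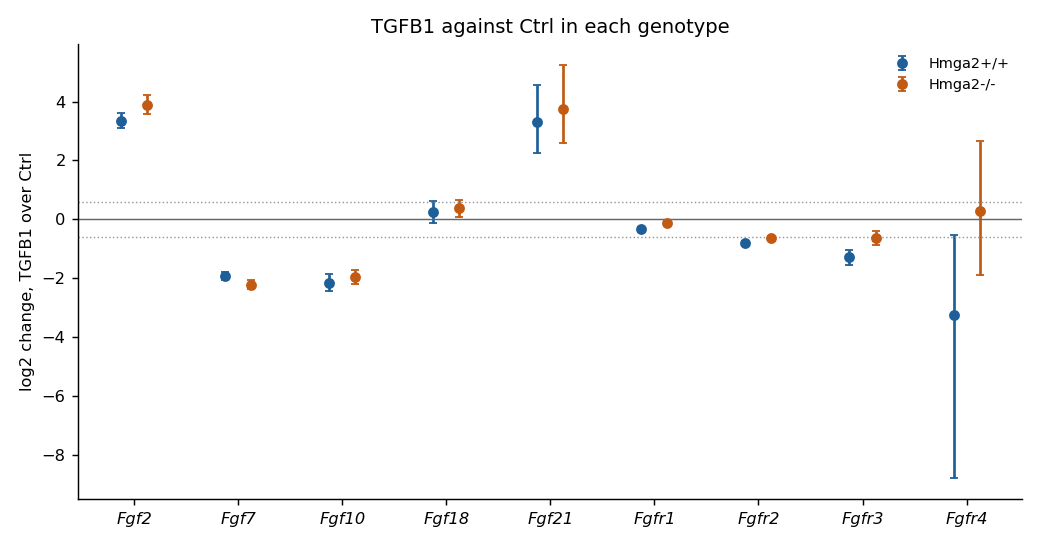
Log2 change of RPKM, TGFB1 over Ctrl, of the 9 genes in *Hmga2*+/+ and *Hmga2*-/- MEF, with 95% intervals that cover counting error only. The dotted lines are the 1.5-fold threshold, beyond which *Fgf2* and *Fgf21* lie above and *Fgf7*, *Fgf10*, *Fgfr2* and *Fgfr3* below in both genotypes.

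The genotypes were compared next. In Ctrl, no gene of the 9 was called higher in *Hmga2*-/- MEF and only *Fgfr4* was called lower, on 4 against 10 reads (2.48-fold lower, 0.727 to 11). Over all genes 7.71% were called higher and 7.38% lower in this comparison, and over genes that reached 1 RPKM in any library 2.37% and 1.64%. *Fgf2* and *Fgf18* came close to the threshold in opposite directions, with *Fgf2* 1.48-fold lower (1.12 to 1.96) and *Fgf18* 1.48-fold higher (1.16 to 1.90) in *Hmga2*-/- Ctrl. *Fgf10* was 1.20-fold higher (1.07 to 1.34) and *Fgfr2* 1.11-fold higher (1.07 to 1.15), whereas *Fgfr1* was 1.15-fold lower (1.11 to 1.19). For *Fgf7*, *Fgfr3* and *Fgf21* the intervals of the ratio held no change.

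With TGFB1, 2 of the 9 genes were called higher in *Hmga2*-/- MEF and none lower, where 8.58% of all genes were higher and 7.2% lower. Among genes that reached 1 RPKM in any library 3.11% were higher and 1.98% lower. The called genes were *Fgf18*, 1.63-fold higher (1.31 to 2.03, on 220 against 136 reads), and *Fgfr4*, on 5 against 1 reads, with an interval of 0.563 to 238. *Fgf18* was thus higher in *Hmga2*-/- than in *Hmga2*+/+ MEF in both conditions, with both intervals above no change. With a pseudocount of 1 its log2 change with TGFB1 was 0.46 and was not called. *Fgf10*, *Fgfr3* and *Fgfr2* were 1.37-fold (1.08 to 1.73), 1.38-fold (1.13 to 1.69) and 1.26-fold (1.20 to 1.32) higher, and *Fgf7* was 1.29-fold lower (1.13 to 1.46). *Fgf2* (1.02-fold lower, 0.946 to 1.10), *Fgf21* (1.03-fold higher, 0.749 to 1.42) and *Fgfr1* (1.01-fold lower, 0.969 to 1.05) had intervals that held no change.

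**Figure D4:**
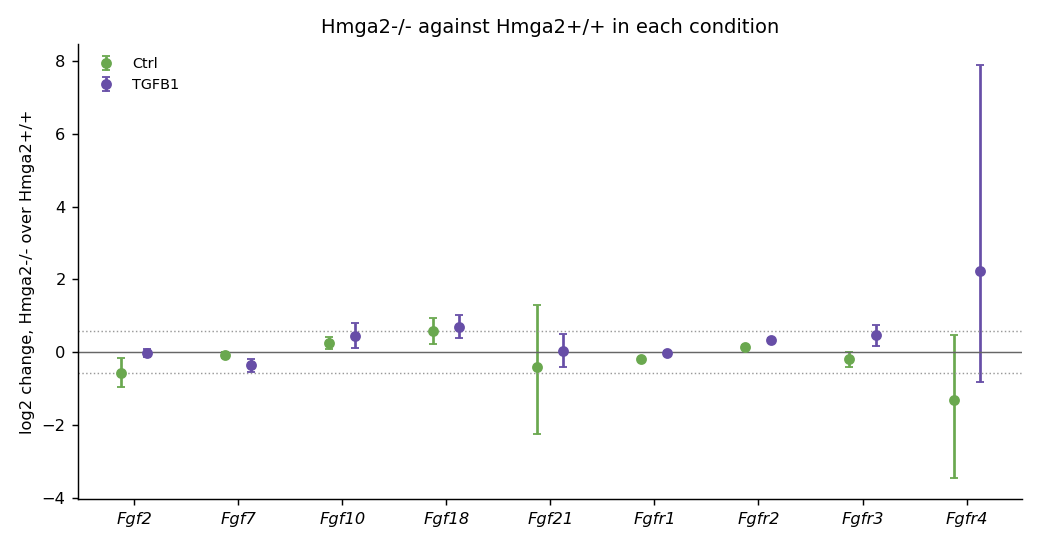
Log2 change of RPKM, *Hmga2*-/- over *Hmga2*+/+, of the 9 genes in Ctrl and with TGFB1, with 95% intervals of counting error and dotted lines at the 1.5-fold threshold. Only *Fgfr4* in both conditions, on 1 to 10 reads, and *Fgf18* with TGFB1 lie beyond the threshold.

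The size of the TGFB1 change was then compared between the genotypes, as the log2 change in *Hmga2*-/- MEF minus that in *Hmga2*+/+ MEF. The difference of *Fgfr3* was 0.66 (0.31 to 1.01), a decrease with TGFB1 of 0.63 in *Hmga2*-/- against 1.29 in *Hmga2*+/+ MEF. For *Fgf2* it was 0.53 (0.13 to 0.94) and for *Fgf7* -0.29 (-0.50 to -0.09), so that both ligands moved further from Ctrl in *Hmga2*-/- MEF. *Fgfr1* and *Fgfr2* each differed by 0.19 (0.11 to 0.27 and 0.10 to 0.27), with the smaller decrease in *Hmga2*-/- MEF. The median difference over the 10737 genes was 0.046, and with median-ratio scaling the differences of *Fgfr1* and *Fgfr2* were both 0.13. With the most abundant transcript the difference of *Fgfr1* was 0.033. The intervals of *Fgf10* (0.19, -0.18 to 0.55) and *Fgf18* (0.13, -0.33 to 0.60) held no difference, and *Fgf21* (0.46) and *Fgfr4* had too few reads for an interval. A difference of at least 1.5-fold was found for 1 of the 8 genes that reached 1 RPKM, *Fgfr3*, and for 3.55% of the 10737 genes. With a pseudocount of 1 the difference of *Fgfr3* was 0.33, below that threshold. These comparisons share libraries with those above.

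The other genes of FGF signalling were read from lists of further ligands, intracellular FGF homologous factors, co-receptors and binding proteins, signal transducers, feedback inhibitors and targets. Of these 88 genes 18 were called higher and 19 lower with TGFB1 in *Hmga2*+/+ MEF, and 25 higher and 17 lower in *Hmga2*-/- MEF. Over all genes the shares were 11.6% and 19.1% in *Hmga2*+/+ and 12.9% and 18.3% in *Hmga2*-/- MEF. In the set of 66 genes that reached 1 RPKM in at least 1 library, which holds no further ligand and none of the 4 homologous factors, 15 were higher and 10 lower in *Hmga2*+/+ MEF, and 20 higher and 8 lower in *Hmga2*-/- MEF, beside 11.4% and 16.8%, and 13.1% and 15.1%, of the 10737 genes. Their median log2 changes were 0.18 and 0.22, beside -0.05 and 0.01 over the 10737 genes. Of the 11 feedback inhibitors 4 were higher and 1 lower in *Hmga2*+/+ MEF, and 5 higher and 1 lower in *Hmga2*-/- MEF. The higher ones included 3 MAPK phosphatases in both genotypes. *Dusp5*, an ERK phosphatase of the nucleus, was at 1.47 RPKM in *Hmga2*+/+ Ctrl, 12.0 RPKM in *Hmga2*+/+ TGFB1, 2.08 RPKM in *Hmga2*-/- Ctrl and 19.0 RPKM in *Hmga2*-/- TGFB1. *Dusp6*, an ERK phosphatase of the cytoplasm, was 5.26-fold and 4.06-fold higher with TGFB1, and *Dusp4* was 4.07-fold and 3.24-fold higher, in *Hmga2*+/+ and *Hmga2*-/- MEF respectively. The 1 lower inhibitor, named here after its value was seen, was *Spry2*, with log2 changes of -0.78 and -0.82.

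Of the 9 FGF targets above 1 RPKM, 5 were higher and 1 lower with TGFB1 in *Hmga2*+/+ MEF and 6 higher and 1 lower in *Hmga2*-/- MEF. *Etv4*, an ETS factor downstream of FGF receptors, was 5.10-fold higher in *Hmga2*+/+ and 5.98-fold higher in *Hmga2*-/- MEF. *Myc* was 3.73-fold and 3.56-fold higher and *Fosl1*, an AP-1 subunit, was 3.58-fold and 3.80-fold higher. These genes are also known to follow other growth factors. Of the 23 transducers above 1 RPKM, 1 was higher and 4 lower in *Hmga2*+/+ MEF, and 18 were not called. In *Hmga2*-/- MEF 1 was higher and 2 lower, and 20 were not called. Beside these counts of targets and transducers, 11.4% of the 10737 genes were higher and 16.8% lower in *Hmga2*+/+ MEF. The shares in *Hmga2*-/- MEF were 13.1% and 15.1%.

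Among the 23 co-receptors and binding proteins above 1 RPKM, 5 were higher and 4 lower with TGFB1 in *Hmga2*+/+ MEF and 8 higher and 4 lower in *Hmga2*-/- MEF. Of the 10737 genes, 11.4% were higher and 16.8% lower in *Hmga2*+/+ MEF, and 13.1% and 15.1% in *Hmga2*-/- MEF. *Ncam1*, an adhesion protein that can bind FGF receptors, was 3.69-fold higher in *Hmga2*+/+ and 4.43-fold higher in *Hmga2*-/- MEF. *Flrt2*, a transmembrane protein of the FLRT family, was 2.45-fold and 3.79-fold higher. Between the genotypes, 7 of the 88 genes were called higher and 8 lower in *Hmga2*-/- Ctrl, and 14 higher and 6 lower with TGFB1, where 7.71% and 7.38%, and 8.58% and 7.2%, of all genes were called. Above 1 RPKM these were 2 higher and 1 lower in Ctrl, beside 2.37% and 1.64% of the 10737 genes, and *Gpc3*, a heparan sulfate proteoglycan, had the largest log2 change in both conditions. It was at 3.46 RPKM in *Hmga2*+/+ Ctrl, 1.67 RPKM in *Hmga2*+/+ TGFB1, 11.8 RPKM in *Hmga2*-/- Ctrl and 5.75 RPKM in *Hmga2*-/- TGFB1, which is 3.42-fold higher in *Hmga2*-/- Ctrl (log2 change 1.77, 1.62 to 1.93) and 3.44-fold higher with TGFB1. In Ctrl the other calls above 1 RPKM were *Dusp6*, 1.53-fold higher, and *Fgfbp3*, a carrier of secreted FGF, with a log2 change of -1.0. With TGFB1, 7 of the 66 genes above 1 RPKM were called higher in *Hmga2*-/- MEF and 0 lower, beside 3.11% and 1.98% of the 10737 genes. After *Gpc3* the log2 changes were 0.89 for *Dusp10*, 0.88 for *Ier3*, 0.71 for *Sdc3*, 0.66 for *Dusp5* and 0.63 for *Sulf2*.

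**Figure D5:**
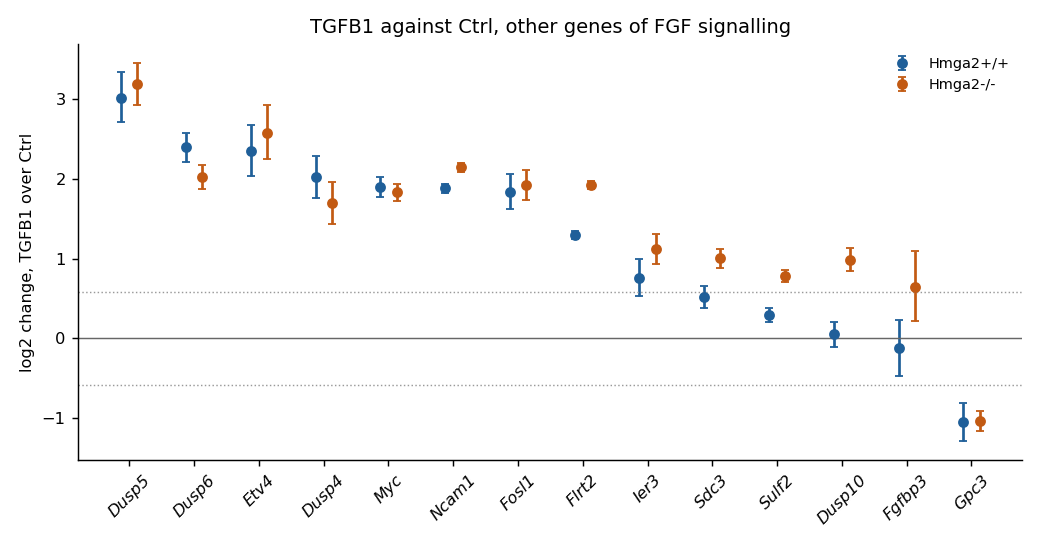
Log2 change of RPKM, TGFB1 over Ctrl, of the FGF signalling genes named by rule, in *Hmga2*+/+ and *Hmga2*-/- MEF, with 95% intervals of counting error and dotted lines at the 1.5-fold threshold. *Dusp5* has the highest change in both genotypes, and *Gpc3* is lower with TGFB1 by the same log2 change of about 1 in both.

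The genes most like the best-measured ligand and receptor were found by the Euclidean distance of log2(RPKM + 0.1), centred for each gene over the 4 libraries, among 10736 other genes that reached 1 RPKM in any library. For *Fgf7* they were *Wnk4* (distance 0.11), *Podxl2* (0.11) and *Hdac11* (0.12), and 12 genes lay within a distance of 0.2. For *Fgfr1*, whose level varied little, they were *Safb2* (0.017), *Bach1* (0.021) and *Samd4b* (0.022), and 1378 genes lay within that distance. *Wnk4* was at 2.37 RPKM in *Hmga2*+/+ Ctrl, 0.616 RPKM in *Hmga2*+/+ TGFB1, 2.36 RPKM in *Hmga2*-/- Ctrl and 0.478 RPKM in *Hmga2*-/- TGFB1. With 4 libraries such a likeness is a description of these libraries.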

How the data were processed

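RNA-seq was performed by the authors on total RNA with a stranded kit and single-end reads of 75 bases. Reads were trimmed with Trimmomatic, mapped to mm10 with HISAT2 2.1.0 and counted with HOMER per UCSC known gene on the sense strand. The deposited values are RPKM, reads scaled to transcript length and mapped reads, for 63759 transcripts, with the transcript length beside them. The file header names exons as the counted part and the methods name genes. The methods speak of duplicates, but 1 column per group was analysed here, and whether it pools several cultures is not given in the sources used here.

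Transcripts were named from GENCODE vM21 by overlap of at least 50% on the same strand and, among candidates, the gene with the most similar span, which named 90.5% of them. The span step was needed because the GENCODE *Fgfr2* entry reaches across 13 other coding genes. The transcript with the longest body stood for each gene. Depth was the number of mapped reads at which values of transcripts under 600 bases became whole reads, to within 0.1 reads for 100% of at least 2224 values per library. 0 RPKM was set to 0.001 and 1.5-fold was the threshold, as in the study's methods. The genes named were the 9 members, *Hmga2*, *Nudt6*, the called pathway genes that reached 1 RPKM in a compared library (at most 6 per comparison, by absolute log2 change) and the 3 genes nearest to the leading ligand and receptor. *Fgf9*, *Spry2*, *Klb* and *Kl* were named outside this rule. The members and gene lists were chosen with earlier results of these data known. Alternatives were 2 pseudocounts, an RPKM filter, median-ratio scaling, the most abundant transcript and a 2-fold threshold. Python 3.11 with scipy was used. Depth recovery, calls of raised transcripts and the coverage of the ratio intervals were checked on simulated Poisson reads. Such reads follow the counting model of the intervals, so the check does not cover variation between cultures. Gene naming and the intervals of a difference were not checked this way. Promoters came from RefSeq, and 8 of the 9 genes matched.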

Additional observations from a re-analysis of the deposited data

Results flagged for a closer look

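Among the 9 FGF genes and the pathway genes named by rule, 2 had TGFB1 log2 changes of opposite sign in the genotypes. For each of them the interval in 1 genotype held no change, so an opposite direction is not shown. *Fgfr4* was lower with TGFB1 in *Hmga2*+/+ MEF (log2 change -3.25), and in *Hmga2*-/- MEF its log2 change was 0.28 (-1.90 to 2.65). The difference was 3.53, on 10, 1, 4 and 5 reads. *Fgfbp3* had log2 changes of -0.12 (-0.47 to 0.23) in *Hmga2*+/+ and 0.65 (0.21 to 1.09) in *Hmga2*-/- MEF, a difference of 0.77 (counting interval 0.23 to 1.31). With 1 library per group neither difference was tested against replicates. *Kl*, named outside the rule, also had changes of opposite sign, on 2, 0, 0 and 4 reads in the order *Hmga2*+/+ Ctrl, *Hmga2*+/+ TGFB1, *Hmga2*-/- Ctrl and *Hmga2*-/- TGFB1, too few for a fold.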

How the results depend on the processing

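No paired analysis was possible because each condition had 1 library. *Fgf2*, *Fgf21*, *Fgf7* and *Fgf10* stayed beyond 1.5-fold with TGFB1 in both genotypes under both pseudocounts, median-ratio scaling and the most abundant transcript. No log2 change between 2 libraries reversed. The difference of the TGFB1 changes of *Fgf10* went from 0.19 to -0.020 with a pseudocount of 1. The order of the 9 genes stayed as it was under scaling and under the most abundant transcript. With that transcript, however, *Fgfr1* was at 33.2 RPKM in *Hmga2*+/+ TGFB1, inside the *Fgf2* interval of 32.9 to 36.6 RPKM. With a pseudocount of 1 the TGFB1 log2 changes in *Hmga2*+/+ and *Hmga2*-/- MEF became 3.02 and 3.40 for *Fgf2*, -1.67 and -1.88 for *Fgf7*, -1.09 and -1.11 for *Fgf10*, 1.11 and 1.18 for *Fgf21* and -0.68 and -0.34 for *Fgfr3*, and -0.071 for *Fgfr4* in *Hmga2*+/+ MEF. A pseudocount shrinks changes of low levels by construction. Scaling gave -0.23 for *Fgfr1* and -0.73 for *Fgfr2* in *Hmga2*+/+ MEF. The most abundant transcript gave -0.17 for *Fgfr1* in *Hmga2*+/+ MEF, 0.22 for *Fgfr2* between genotypes in Ctrl and -0.16 for *Fgfr1* between genotypes with TGFB1. The difference of the TGFB1 changes became 0.033 for *Fgfr1* with the most abundant transcript, and 0.62 and 0.078 for *Fgfr4* with pseudocounts of 0.1 and 1. For *Fgfr3* it became 0.60 and 0.33 with these pseudocounts, the second below 1.5-fold.

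Among the 9 genes, a 2-fold threshold left 2 lower with TGFB1 in *Hmga2*-/- MEF. Between genotypes in Ctrl, scaling made 1 higher (*Fgf18*), and 0 were lower under either pseudocount or the filter of 1 RPKM. With TGFB1, 1 was higher in *Hmga2*-/- MEF under a pseudocount of 0.1 or the filter (*Fgf18*), and 0 under a pseudocount of 1. At a 2-fold threshold 1 was higher, but this was *Fgfr4*, on 5 against 1 reads. Of the 88 pathway genes, the 19 lower with TGFB1 in *Hmga2*+/+ MEF became 8 with a pseudocount of 1, 10 with the filter and 9 at 2-fold, and the 17 in *Hmga2*-/- MEF became 10 and 7 with pseudocounts of 0.1 and 1, 8 with the filter and 9 at 2-fold. Between genotypes in Ctrl the 7 higher became 4, 1 and 2 and the 8 lower became 2, 0 and 1 with pseudocounts of 0.1 and 1 and the filter. With TGFB1 the 14 higher became 9, 6 and 7 under these and 7 at 2-fold, and the 6 lower became 2, 0 and 0. Over all genes a pseudocount of 1 brought the genes called with TGFB1 from 2404 higher and 3984 lower to 972 and 1198 in *Hmga2*+/+ MEF and from 2687 and 3807 to 1124 and 1097 in *Hmga2*-/- MEF, and those called between genotypes from 1605 and 1535 to 116 and 67 in Ctrl and from 1785 and 1498 to 160 and 70 with TGFB1. Depth limits *Fgfr4* and the Ctrl levels of *Fgf21*.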
